A study of Mus musculus with 121 samples.

Results

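In fibroblasts kept on the LH schedule, with libraries grouped by sample title, 4 genes of the circadian clock were higher at 12 h than at 0 h of the sampled day, and 2 genes, Eif2ak2 and mt-Nd4, were lower. The comparison set 3 libraries of LH collection 1 (0 h) against 4 libraries of LH collection 4 (12 h), which are 7 of the 62 libraries of the series, and covered 13292 of the 31053 genes listed. Libraries were assigned to groups by the titles of the deposited samples, in which the fields give treatment, clock hour, collection and replicate, and both sequencing runs of a library were summed. A gene was tested if it had a CPM (count scaled to a library total of 1000000) of at least 1 in at least 3 of the 62 libraries.

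The cells were an immortalized mouse-ear fibroblast line that carries a PER2::LUCsv reporter knocked into Per2, so that all groups share this allele and represent 1 line. The schedules alternated an H medium rich in glucose and insulin with an L medium poor in both. LH cells received L before H in each cycle of medium changes, HL cells received H before L, and HH cells received H at every change. All cells then ran free for 12 h before RNA was collected at intervals of 4 h. The hours 0 and 12 given here are counted from collection 1 in steps of this interval, since the titles of both LH groups carry the same clock hour, 20. The study describes its replicates in general as independent biological experiments. The labels do not tie a library to a culture or a day, and the p-values measure the spread between these libraries.

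The names of these libraries are in dispute. The read summary of the study gives other names to all 7 of them. It calls the 3 libraries titled LH collection 1 LH collection 6, libraries 1 and 2 titled LH collection 4 HL collection 3, and libraries 3 and 4 of that group HL collection 4. The libraries that it calls LH collections 1 and 4 are 7 others, which the titles assign to HL. Each group below is therefore a group by title, and values for the libraries that the read summary places in LH collections 1 and 4 are set beside those by title where they bear on a result.

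The circadian clock of mammalian cells is a loop of transcription. The proteins encoded by Arntl (Bmal1) and Clock bind E-boxes and switch on the Per and Cry genes, whose products then repress that binding, and also the Nr1d and Bhlhe genes, which encode further repressors. The Rev-Erb proteins of Nr1d1 and Nr1d2 compete with the ROR proteins at ROR elements in Arntl, Nfil3 and other genes. Dbp, Tef and Hlf encode activators of D-box genes, and Nfil3 encodes a repressor that acts on the same sites. Fibroblasts in culture keep this clock once they have been synchronized.

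Promoter windows of 300 bases are shown for the 4 clock genes called, for Eif2ak2, and for Nfil3 and Ifit1 as uncalled members of the clock and interferon lists, as RefSeq gives them on GRCm38.p6, in the direction of transcription. They are the clock genes Nr1d1 (chr11:98775328-98775627, minus strand), Nr1d2 (chr14:18239057-18239356, minus strand), Dbp (chr7:45704997-45705296, plus strand), Bhlhe41 (chr6:145865371-145865670, minus strand) and Nfil3 (chr13:52980990-52981289, minus strand) and the interferon-regulated genes Eif2ak2 (chr17:78882523-78882822, minus strand) and Ifit1 (chr19:34640639-34640938, plus strand). Capitals mark matches on either strand to an E-box (CACGTG), a ROR element (TAGGTCA), a D-box (TTATGTAA) or the core of an interferon-stimulated element (GAAANNGAA).
Nr1d1: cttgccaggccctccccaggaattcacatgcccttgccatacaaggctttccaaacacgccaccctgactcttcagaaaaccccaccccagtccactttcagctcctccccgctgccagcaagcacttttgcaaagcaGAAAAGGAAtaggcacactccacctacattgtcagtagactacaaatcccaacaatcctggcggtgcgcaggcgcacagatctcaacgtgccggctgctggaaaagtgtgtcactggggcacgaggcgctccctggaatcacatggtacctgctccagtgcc
Nr1d2: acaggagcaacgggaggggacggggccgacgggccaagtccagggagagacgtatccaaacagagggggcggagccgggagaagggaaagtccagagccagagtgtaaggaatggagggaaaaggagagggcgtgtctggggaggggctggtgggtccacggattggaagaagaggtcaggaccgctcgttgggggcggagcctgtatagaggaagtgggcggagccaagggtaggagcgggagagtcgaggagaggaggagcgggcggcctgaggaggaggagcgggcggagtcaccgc
Dbp: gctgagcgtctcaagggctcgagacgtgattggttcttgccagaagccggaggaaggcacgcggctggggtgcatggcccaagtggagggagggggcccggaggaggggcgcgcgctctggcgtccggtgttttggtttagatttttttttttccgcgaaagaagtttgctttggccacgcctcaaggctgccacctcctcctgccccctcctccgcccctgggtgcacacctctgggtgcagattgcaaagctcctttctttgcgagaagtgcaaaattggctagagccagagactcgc
Bhlhe41: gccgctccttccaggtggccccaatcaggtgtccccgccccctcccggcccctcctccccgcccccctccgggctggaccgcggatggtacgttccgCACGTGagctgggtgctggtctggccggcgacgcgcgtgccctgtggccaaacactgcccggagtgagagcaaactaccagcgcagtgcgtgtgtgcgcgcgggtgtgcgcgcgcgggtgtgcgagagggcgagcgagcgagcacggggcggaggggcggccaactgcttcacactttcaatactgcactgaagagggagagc
Nfil3: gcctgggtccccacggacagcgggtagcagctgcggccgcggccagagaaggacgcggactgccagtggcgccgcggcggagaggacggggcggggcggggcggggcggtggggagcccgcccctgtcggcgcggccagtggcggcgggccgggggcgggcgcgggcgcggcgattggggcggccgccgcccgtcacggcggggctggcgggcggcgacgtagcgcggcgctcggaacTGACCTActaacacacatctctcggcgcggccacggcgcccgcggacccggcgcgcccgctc
Eif2ak2: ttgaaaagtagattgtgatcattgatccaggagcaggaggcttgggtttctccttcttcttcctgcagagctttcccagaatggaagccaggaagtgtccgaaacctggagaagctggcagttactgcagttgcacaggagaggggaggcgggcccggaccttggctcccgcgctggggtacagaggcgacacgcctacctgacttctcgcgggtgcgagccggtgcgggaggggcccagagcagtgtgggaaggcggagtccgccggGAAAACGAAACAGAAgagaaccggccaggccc
Ifit1: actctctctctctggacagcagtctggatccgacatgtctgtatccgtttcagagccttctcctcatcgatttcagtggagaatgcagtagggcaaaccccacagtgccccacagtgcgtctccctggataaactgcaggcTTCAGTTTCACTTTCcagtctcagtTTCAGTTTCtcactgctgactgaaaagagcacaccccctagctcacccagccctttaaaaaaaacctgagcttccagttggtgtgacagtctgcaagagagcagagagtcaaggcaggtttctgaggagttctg

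The window of Bhlhe41 held 1 E-box, a motif found in 7.15% of all 32851 promoter windows. That of Nfil3 held 1 ROR element, found in 2.61% of all windows. The windows of Eif2ak2 and Ifit1 held 2 and 3 interferon cores, and 8.56% of all windows held at least 1. Windows were matched for 18 of the 20 clock genes reported (all but Per2 and Bhlhe40), and of their 24 windows 6 held an E-box, 2 a ROR element and 1 a D-box, which 0.938% of all windows held. Of the 23 windows matched for 19 interferon genes, 8 held an interferon core. The single capital stretch in Nr1d1 is a match to the same letters. The windows of Nr1d2 and Dbp held 0 matches to any of the 4 motifs. These matches are descriptions of letters and are not evidence that a factor was bound.

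The 7 libraries held 5124931 to 8101013 counts each. Their fibroblast identity was checked against 12 markers, all of which were tested and none of which was called. Their summed level was 44050 to 45169 CPM at 0 h and 34422 to 52820 CPM at 12 h. The 5 skeletal muscle markers were at 0 in all 7 libraries. The epithelial, leukocyte and melanocyte lists reached at most 2.96, 13 and 0.883 CPM in sum, and the adipocyte list 12.1 CPM. The endothelial list summed to 134 to 212 CPM and the cartilage list to 380 to 649 CPM, nearly all from their markers Kdr and Sox9. Of these lists 2 of 5 and 2 of 4 markers were tested, and Pecam1 and Acan were near 0. No marker of these lists was called. Replicate 2 of the 12 h group stood apart. The chi-square per degree of freedom between its counts and those of the other 12 h libraries was 27.5 to 58.7, against 6.91 to 14.4 among the others and 4.74 to 10.7 among the 0 h libraries. Reads on no gene made up 28.9% of its gene-level reads, against 20.4% to 23.3% in the other 6 libraries. It was kept in the comparison, and results are given with and without it.

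Across all genes, 6 of 13292 passed an adjusted p of 0.05 in the quasi-likelihood test of edgeR, adjusted by Benjamini-Hochberg over all genes, which is 0.0451% of those tested. On simulated counts of the same depth, the same test found 145 of 200 genes changed by 2-fold and called 18 of 13092 unchanged genes. The changed genes had a mean of at least 5 CPM, and no simulated library was made to stand apart. The share found there therefore need not hold for these 7 libraries. At an unadjusted p under 0.05, 650 genes were higher at 12 h (4.89%) and 664 lower (5%). The median log2 fold change over all genes was 0.01. Genes whose 12 h libraries all lay above every 0 h library made up 5.67% of those tested, and genes whose 12 h libraries all lay below made up 5.44%.

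**Figure D1:**
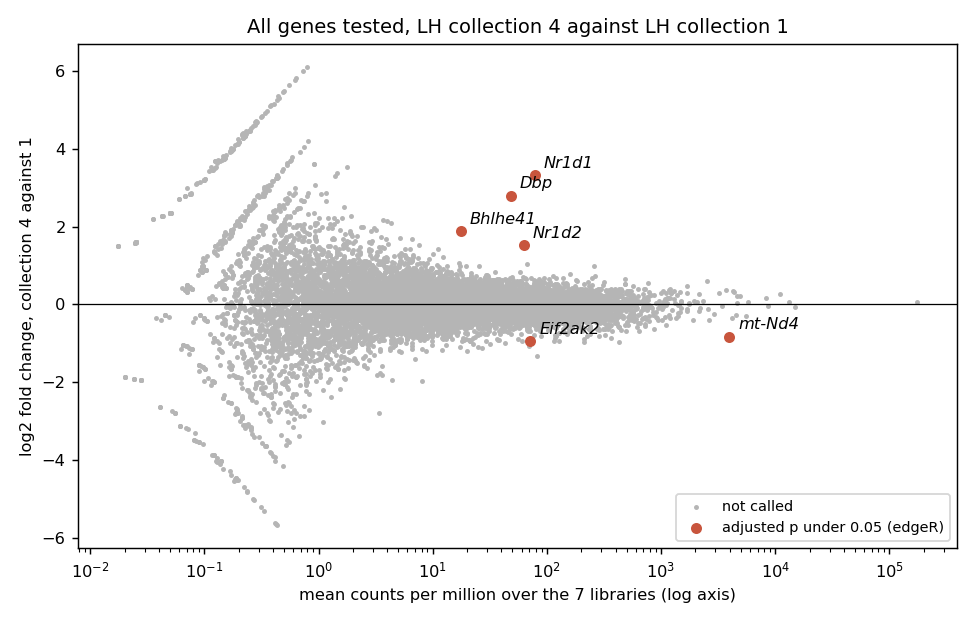
Log2 fold change of LH collection 4 (12 h) against LH collection 1 (0 h) for each gene tested, against its mean CPM over the 7 libraries on a log axis. Red points are the 6 genes with an adjusted p under 0.05, of which Nr1d1, Dbp, Nr1d2 and Bhlhe41 lie above 0 and Eif2ak2 and mt-Nd4 below.

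The largest change among the called genes was that of Nr1d1, which encodes the repressor Rev-Erb alpha. It was at 8.98, 14.9 and 14 CPM in the 0 h libraries and at 210, 119, 76.7 and 105 CPM in the 12 h libraries. All 12 h libraries lay above all 0 h libraries, and the means were 12.6 ± 3.18 (SD, n = 3) and 128 ± 57.5 (SD, n = 4). The log2 fold change was 3.32 ± 0.30 (SE, adjusted p = 0.00013 in edgeR). The gene overlaps Thra on the opposite strand, and whether the counting used strand is not given in the sources used here.

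Nr1d2, which encodes Rev-Erb beta, was at 27.9, 35.7 and 27.1 CPM at 0 h and at 89.9, 72, 88.1 and 99.2 CPM at 12 h. The groups did not overlap, and the gene rose by 1.52 ± 0.17 on the log2 scale (SE, adjusted p = 0.00044 in edgeR). Bhlhe41, which encodes the E-box repressor DEC2, was at 5.85, 7.1 and 7.69 CPM at 0 h. At 12 h it was at 33.1, 24, 21.7 and 24.4 CPM. Every 12 h library of Bhlhe41 was above the 0 h range, and the log2 fold change was 1.89 ± 0.23 (SE, adjusted p = 0.0017 in edgeR).

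Dbp, the D-box activator, was at 11.9, 8.63 and 12.1 CPM at 0 h and at 77.7, 38.9, 79 and 110 CPM at 12 h. Replicate 2 was the lowest 12 h library for this gene but still above the 0 h libraries, and the log2 fold change was 2.80 ± 0.29 (SE, adjusted p = 0.00032 in edgeR). Dbp overlaps Sphk2 on the opposite strand. All 4 clock genes were called when any 1 of the 7 libraries was left out. In a fit that took its estimate of spread from all 62 libraries, only Nr1d1 and 1 other gene in the whole comparison passed, and the adjusted p was 0.49 for Nr1d2, 0.29 for Dbp and 0.29 for Bhlhe41.

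**Figure D2:**
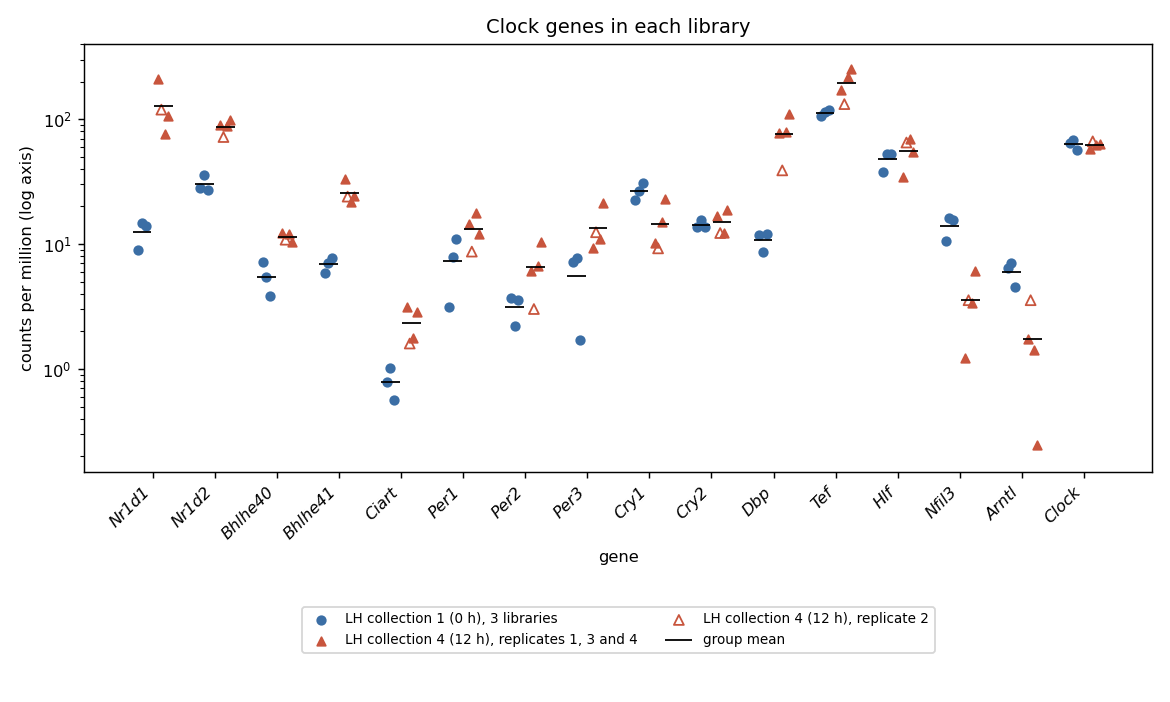
CPM of 16 clock genes in each library on a log axis, with blue circles for the 3 libraries of LH collection 1 (0 h), red triangles for the 4 libraries of LH collection 4 (12 h), the open triangle for replicate 2 of that group and a black line for each group mean. Nr1d1, Nr1d2, Bhlhe41 and Dbp separate fully with the 12 h libraries higher, while Nfil3 and Arntl separate with the 12 h libraries lower without passing the adjusted test.

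Of the 10 clock repressors tested, 3 rose and none fell at an adjusted p of 0.05, against 0.0451% of all genes called. At an unadjusted p under 0.05, 8 had a positive fold change and 1 a negative one, against 4.89% and 5% of all genes. The median log2 fold change of the list was 1.17. Per3 was at 7.22, 7.78 and 1.71 CPM at 0 h and at 9.23, 12.4, 11 and 21.4 CPM at 12 h. The groups did not overlap, and the log2 fold change of 1.29 ± 0.43 (SE) had an adjusted p of 0.40 in edgeR, and 0.019 without replicate 2 of the 12 h group. Per3 lies in part within Camta1 on the same strand.

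Per1 had a log2 fold change of 0.83 ± 0.36 (SE) and Per2 of 1.04 ± 0.44, and for both the lowest 12 h library, replicate 2, was within the 0 h range. Per2 is the gene that carries the reporter, and whether reads from the 3′ end of the tagged transcript are counted for Per2 was not tested. Bhlhe40, which encodes DEC1, was at 7.22, 5.41 and 3.84 CPM at 0 h and at 12.4, 10.8, 12 and 10.4 CPM at 12 h, with a log2 fold change of 1.05 ± 0.30 (SE, adjusted p = 0.35 in edgeR). Ciart, a repressor of the Arntl and Clock proteins, was low at 0.569 to 1.01 CPM at 0 h and at 1.6 to 3.14 CPM at 12 h, with no overlap (log2 fold change 1.55 ± 0.68, adjusted p = 0.48 in edgeR).

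The Cry genes had no higher level at 12 h beyond their spread. Cry1 was at 22.6, 26.7 and 30.9 CPM at 0 h and at 10.3, 9.24, 15 and 23 CPM at 12 h. Replicate 4 of the 12 h group reached the 0 h range, and the log2 fold change was -0.89 ± 0.27 (SE, adjusted p = 0.36 in edgeR). Cry2 overlapped between the groups, at 13.7 to 15.6 CPM at 0 h and 12.2 to 18.6 CPM at 12 h, with a log2 fold change of 0.06 ± 0.23 (SE).

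Among the activators, none of the 6 genes listed and tested was called, and the median log2 fold change was -0.15. Arntl, which encodes the partner of Clock, was at 6.44, 7.1 and 4.56 CPM at 0 h and at 1.74, 3.55, 1.41 and 0.247 CPM at 12 h. The 12 h libraries all lay below the 0 h libraries, and the log2 fold change of -1.82 ± 0.59 (SE) had an adjusted p of 0.39 in edgeR, and 0.0049 without replicate 2. Clock itself was at 56.7 to 68.3 CPM at 0 h and 57.8 to 66.5 CPM at 12 h (log2 fold change -0.02 ± 0.14).

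Rora, which encodes an activator at ROR elements, was at 183 to 199 CPM at 0 h and 155 to 182 CPM at 12 h, a separation that corresponds to a log2 fold change of -0.15 ± 0.13 (SE, adjusted p = 0.73 in edgeR). Rorb was at 5.07 to 6.26 CPM at 0 h and 1.42 to 4.81 CPM at 12 h (log2 fold change -0.79 ± 0.43). Arntl2, a relative of Arntl, had a log2 fold change of -0.15 ± 0.79. Npas2, a relative of Clock, had 0 to 8 counts in a library, and no fold change is given for it.

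Of the 4 output factors, Dbp was called. Tef was at 105, 114 and 119 CPM at 0 h and at 172, 132, 218 and 254.3 CPM at 12 h. The groups did not overlap, and the log2 fold change was 0.77 ± 0.19 (SE, adjusted p = 0.32 in edgeR, 3.1e-07 without replicate 2). Nfil3 was at 10.5, 16.1 and 15.5 CPM at 0 h and at 1.22, 3.55, 3.36 and 6.05 CPM at 12 h, all below the 0 h libraries. Its log2 fold change was -1.96 ± 0.38 (SE, adjusted p = 0.14 in edgeR, 0.00012 without replicate 2). Hlf overlapped between the groups, at 38 to 53.1 CPM and 34.3 to 69.8 CPM (log2 fold change 0.22 ± 0.22).

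The 2 genes called lower at 12 h are not clock genes. Eif2ak2 encodes PKR, an interferon-induced kinase that binds double-stranded RNA and phosphorylates the translation factor eIF2 alpha. It was at 116, 94 and 86.6 CPM at 0 h and at 54.9, 44.8, 52.8 and 53.2 CPM at 12 h. The groups stood well apart, and the log2 fold change was -0.95 ± 0.15 (SE, adjusted p = 0.038 in edgeR). The call held in 1 of the 7 fits that left out 1 library, the one without replicate 2 of the 12 h group, and the adjusted p reached 0.34 without replicate 2 of the 0 h group.

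The mitochondrial gene mt-Nd4, which encodes a subunit of respiratory complex I, was at 5501, 5214 and 4984 CPM at 0 h and at 2766, 2744, 2953 and 3399 CPM at 12 h. The log2 fold change was -0.83 ± 0.14 (SE, adjusted p = 0.047 in edgeR), and this call too held in 1 of the 7 fits without 1 library, again the one without replicate 2 of the 12 h group. The other mitochondrial genes, looked at after the value of mt-Nd4 was seen, did not share it. The neighbouring mt-Nd5 was at 636 to 876 CPM at 0 h and 690 to 766 CPM at 12 h, and mt-Nd2 was at 6552 to 9955 and 6434 to 9453 CPM. The share of counts on mitochondrial genes was 1.89% to 2.38% at 0 h and 1.93% to 2.09% at 12 h.

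By the rule for named genes, the uncalled genes of smallest p were also read out. Among the higher ones, 2900060B14Rik, a transcript of no stated function that overlaps Clasp1 on the opposite strand, was at 150 to 190 CPM at 0 h and 280 to 442 CPM at 12 h (log2 fold change 0.99 ± 0.18, adjusted p = 0.11 in edgeR). Lsm12, an RNA-binding protein gene, was at 51.1 to 55.6 CPM and 80.2 to 92.2 CPM (0.66 ± 0.14, adjusted p = 0.20 in edgeR). Both separated fully between the groups, and both were called without 12 h replicate 2 (adjusted p = 2.3e-06 and 0.0015 in edgeR).

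Among the lower ones, Angptl4, which encodes an inhibitor of lipoprotein lipase, was at 26.5 to 35.6 CPM at 0 h and 10.6 to 16.6 CPM at 12 h (log2 fold change -1.20 ± 0.21, adjusted p = 0.076 in edgeR). Lgals3bp, a secreted glycoprotein gene, was at 254.1 to 337 CPM and 115 to 190 CPM (-0.89 ± 0.17, adjusted p = 0.11 in edgeR). Dync2h1, the heavy chain of the motor that returns cargo along cilia, was at 42.3 to 59.1 CPM and 21.3 to 29.7 CPM (-0.91 ± 0.18, adjusted p = 0.14 in edgeR). None of these 3 genes had overlapping groups, and all 3 were called without 12 h replicate 2 (adjusted p = 0.00017, 6.1e-09 and 0.0012 in edgeR).

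No gene of the interferon and MHC class I list passed the adjusted test, but 9 of the 20 tested had a negative fold change with an unadjusted p under 0.05, against 5% of all genes, and none a positive one. The median log2 fold change was -0.39, or 0.49 in the libraries that the read summary calls LH. In 6 genes all 12 h libraries lay below all 0 h libraries, against 5.44% of all genes. Ifit1, an interferon-induced RNA-binding protein gene, was at 187, 98.9 and 88.8 CPM at 0 h and at 39.7, 88.3, 44.2 and 27.9 CPM at 12 h. Replicate 2 was the highest 12 h library and close to the 0 h range, and the log2 fold change was -1.33 ± 0.33 (SE, adjusted p = 0.32 in edgeR).

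Bst2, which encodes the antiviral membrane protein tetherin, was likewise highest among the 12 h libraries in replicate 2, at 112, 95.7 and 90.3 CPM at 0 h and at 27.3, 79.4, 34.3 and 47.5 CPM at 12 h (log2 fold change -1.08 ± 0.27, adjusted p = 0.32 in edgeR). Irf7, a transcription factor gene of this response, was at 20.9 to 31.2 CPM at 0 h and at 10.8, 19.9, 13.6 and 9.63 CPM at 12 h (-0.92 ± 0.26). H2-K1, an MHC class I heavy chain gene, was at 86.7 to 124 CPM and 65.3 to 81.4 CPM (-0.57 ± 0.16). H2-K1 is 1 of a family of near-identical genes among which reads can be split.

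In the libraries of this list, replicate 2 of the 12 h group sat apart from the others. Irf9, a subunit of the factor that carries the type I interferon signal, was at 199 to 227.5 CPM at 0 h, at 133, 131 and 114 CPM in 12 h replicates 1, 3 and 4, and at 305 CPM in replicate 2. Isg15, a ubiquitin-like protein gene, was at 56 to 64.6 CPM at 0 h, at 19, 24.2 and 14.7 CPM in those 3 libraries and at 63.6 CPM in replicate 2. Without replicate 2, 219 genes (1.65%) were called in all, 84 higher and 135 lower, and 11 of the 20 interferon genes were lower, with a list median of -0.72. That library was singled out after its values had been seen, and what sets it apart was not tested.

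**Figure D3:**
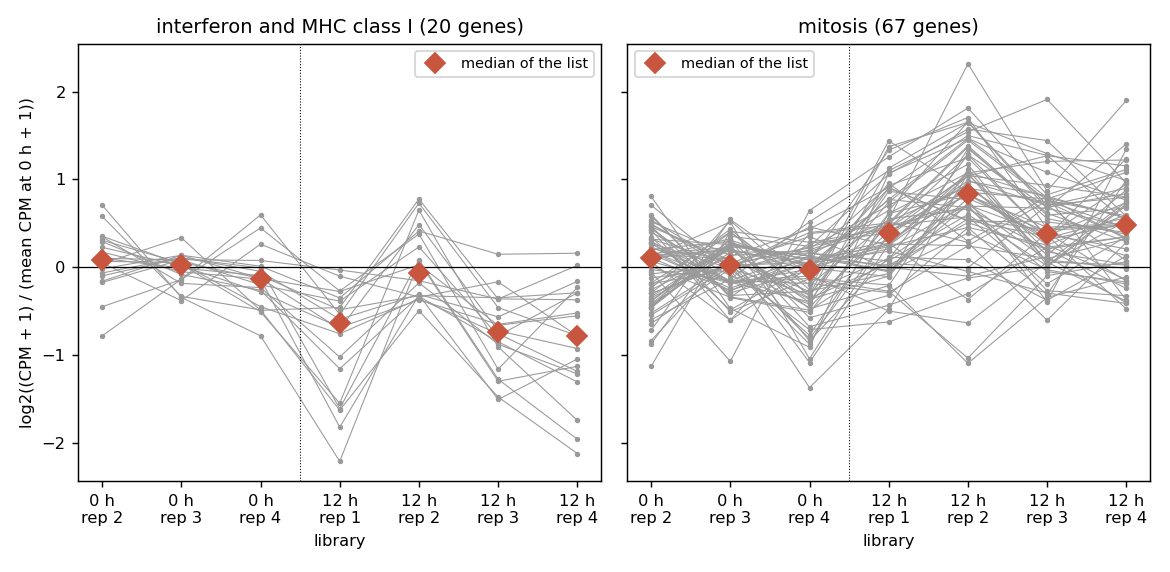
Each grey line is a gene of the interferon and MHC class I list (left, 20 genes) or the mitosis list (right, 67 genes), drawn over the 7 libraries as log2 of CPM plus 1 relative to the mean at 0 h plus 1, and red diamonds are list medians. In 12 h replicates 1, 3 and 4 the interferon median lies below 0, in 12 h replicate 2 it returns close to 0, and the mitosis median lies above 0 in all 4 libraries of 12 h.

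In the mitosis list, 61 of the 67 genes tested had a positive fold change, against 6862 of 13292 over all genes. None was called, 25 had a positive fold change with an unadjusted p under 0.05, against 4.89% of all genes, and none a negative one. The median log2 fold change was 0.64, or 0.52 without 12 h replicate 2 and -0.42 in the libraries that the read summary calls LH. Replicate 2 had the highest summed level of the list, 1161 CPM against 953 to 989 CPM in the other 12 h libraries. In these bulk samples a change in the number of dividing cells and a change in the RNA of each cell cannot be told apart. In 23 of the 67 all 12 h libraries lay above all 0 h libraries, against 5.67% of all genes. Cdc20, which activates the anaphase-promoting complex, was at 7.8, 5.24 and 3.99 CPM at 0 h and at 13.6, 19.9, 15.4 and 12.2 CPM at 12 h (log2 fold change 1.43 ± 0.31, adjusted p = 0.20 in edgeR). It overlaps Elovl1 on the opposite strand.

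Cdca3, a trigger of entry into mitosis, was at 2.71 to 5.24 CPM and 6.36 to 13.5 CPM (log2 fold change 1.53 ± 0.36). Plk1, the mitotic kinase, was at 1.56 to 4.56 CPM and 6.54 to 13.6 CPM (1.67 ± 0.42). Spc24, a kinetochore subunit gene, was at 1.17 to 1.86 CPM and 2.61 to 11.4 CPM (2.10 ± 0.55). These 3 genes had adjusted p-values of 0.31, 0.32 and 0.34 in edgeR, and the 12 h libraries lay above the 0 h libraries in each. Without replicate 2 of the 12 h group, 4 genes of the list were called higher, against 1.65% of all genes called, among them Cdc20, Cdca3 and Plk1.

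For DNA replication and S phase, 5 of 46 genes had a positive and 1 a negative fold change with an unadjusted p under 0.05, against 4.89% and 5% of all genes, and the median was 0.22, or 0.13 without 12 h replicate 2 and -0.52 in the libraries that the read summary calls LH. Mcm7 and Mcm5, subunits of the replicative helicase, were at 86.2 to 97 and 5.27 to 7.02 CPM at 0 h and at 114 to 154 and 9.51 to 11.7 CPM at 12 h. Their log2 fold changes were 0.50 ± 0.15 and 0.74 ± 0.28 (SE), and neither was called. Slbp, which binds histone mRNA, had a log2 fold change of 1.07 ± 0.41, while Rfc1, of the clamp loader, had one of -0.48 ± 0.21 and was lowest in 12 h replicate 2, at 52.2 CPM.

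The lists of collagens and of matrix glycoproteins had no called member among 35 and 32 tested, with medians of -0.02 and -0.14. Without 12 h replicate 2 the medians were 0.07 and -0.03, and 2 collagen genes (Col3a1 higher at 0.44 and Col12a1 lower at -0.47 on the log2 scale) and 3 glycoprotein genes (Nid2 higher, Mgp and Thbs1 lower) were called, against 1.65% of all genes. Col12a1, a fibril-associated collagen gene, was at 253.4 to 326 CPM at 0 h and 115 to 244.7 CPM at 12 h (log2 fold change -0.64 ± 0.20), and Col18a1, a basement membrane collagen gene, had -0.77 ± 0.23. Serpinh1, the collagen chaperone gene, had 0.40 ± 0.15, and P4ha3, a prolyl hydroxylase gene, had -0.51 ± 0.23. In this list 12 h replicate 2 was low, with a summed level of 19971 CPM against 31514 to 34890 CPM in the other 12 h libraries and 28721 to 30783 CPM at 0 h.

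Of the matrix glycoproteins, Mgp, an inhibitor of calcification, was at 180 to 194 CPM at 0 h and 127 to 158 CPM at 12 h (log2 fold change -0.42 ± 0.13, adjusted p = 0.38 in edgeR). Thbs1 and Thbs2, the thrombospondin genes, had log2 fold changes of -0.80 ± 0.30 and -0.51 ± 0.20, and both were lowest in 12 h replicate 2, at 97 and 41.8 CPM. Nid2, a basement membrane linker gene, had 0.48 ± 0.19, with 12 h replicate 2 at 62.5 CPM and the other 12 h libraries at 102 to 121 CPM. The actin genes Acta2, Actg1 and Actb, named after their values were seen, were not called with all libraries, at log2 fold changes of 0.58, 0.58 and 0.26. Without 12 h replicate 2 they were called higher, at 0.73, 0.79 and 0.41. They were the only 3 called of 16 genes in the SRF and actin cytoskeleton list, against 1.65% of all genes. In that list 8 genes had a positive and 8 a negative fold change with all libraries. Its median was -0.002, or 0.11 without replicate 2.

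In the ATF4 and amino acid list, 6 of 18 genes had a positive fold change with an unadjusted p under 0.05, against 4.89% of all genes, and none was called. The median was 0.27, or 0.17 without 12 h replicate 2. Asns, the asparagine synthetase gene, was at 16.6 to 25.7 CPM at 0 h and at 24.6, 49.4, 38.2 and 30 CPM at 12 h (log2 fold change 0.76 ± 0.24). Psph, of serine synthesis, had 0.97 ± 0.33, Slc3a2, of amino acid transport, 0.40 ± 0.16, and Sesn2, a stress-induced inhibitor of mTORC1, 0.55 ± 0.22. Replicate 2 carried much of the list's sum, which was 2375 CPM there, 1546 to 1682 CPM in the other 12 h libraries and 1505 to 1602 CPM at 0 h.

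Glucocorticoid-responsive and KLF genes numbered 13, with 5 positive at an unadjusted p under 0.05 (4.89% of all genes), none called and a median of 0.47, or 0.27 without 12 h replicate 2. The clock gene Per1 is 1 of the 5. The metallothionein genes Mt1 and Mt2 were at 103 to 131 and 24.4 to 40.3 CPM at 0 h and at 151 to 185 and 44.8 to 56.7 CPM at 12 h (log2 fold changes 0.47 ± 0.14 and 0.57 ± 0.18). Sgk1, a kinase gene of the hormone response, had 0.59 ± 0.22 with 12 h replicate 2 highest at 194 CPM, and Cebpd, a transcription factor gene, had 0.47 ± 0.19.

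Of 19 genes of endoplasmic reticulum stress, 2 had a positive and 3 a negative fold change with an unadjusted p under 0.05. The shares of all genes were 4.89% and 5%, and the list median was -0.04. Herpud1, of protein degradation, was at 82.5 to 98.7 CPM at 0 h and 117 to 169 CPM at 12 h (log2 fold change 0.68 ± 0.16, adjusted p = 0.26 in edgeR), and Sdf2l1 had 0.54 ± 0.19. The chaperone genes Dnajc3 and Calr had -0.41 ± 0.14 and -0.35 ± 0.15. Of 30 genes of sterol and fatty acid synthesis, 3 had a positive and 1 a negative fold change at that level, with a median of 0.10. Pmvk, a kinase of the mevalonate pathway, was at 59 to 73.6 CPM and 36.4 to 47.9 CPM (-0.61 ± 0.16), while Insig1 had 0.53 ± 0.20, Fdps 0.35 ± 0.15 and Msmo1 0.35 ± 0.15. None of these 8 genes was called.

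In the list of the IGF axis and imprinted genes, Grb10, an adaptor that restrains insulin and IGF receptors, was at 19.4 to 23.8 CPM at 0 h and 27.4 to 38.5 CPM at 12 h (log2 fold change 0.52 ± 0.19). Igfbp6, an IGF-binding protein gene, had 0.43 ± 0.18 and Stc2, a stanniocalcin gene, -0.40 ± 0.17. H19, an imprinted noncoding RNA, had 0, 0 and 2 counts at 0 h and 7, 10, 8 and 14 at 12 h. In the lists of genes that respond to glucose or insulin, none of the 5 glucose-responsive genes of MondoA and ChREBP and none of the 20 insulin and FoxO genes had an unadjusted p under 0.05, and their medians were 0.03 and -0.04. Glycolysis had 2 of 18 positive at that level, against 4.89% of all genes, and a median of 0.20, or 0.10 without 12 h replicate 2. In each of the 9 other lists, that of SRF and actin genes included, no member was called. At most 2 members of a list in either direction had an unadjusted p under 0.05, and medians were -0.17 to 0.14. Without 12 h replicate 2, single members of 5 further lists were called, Herpud1 (log2 fold change 0.58) and Mt1 (0.51) higher and Pmvk (-0.55), Igf1 (-0.41) and Ier5 (-0.76) lower.

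**Figure D4:**
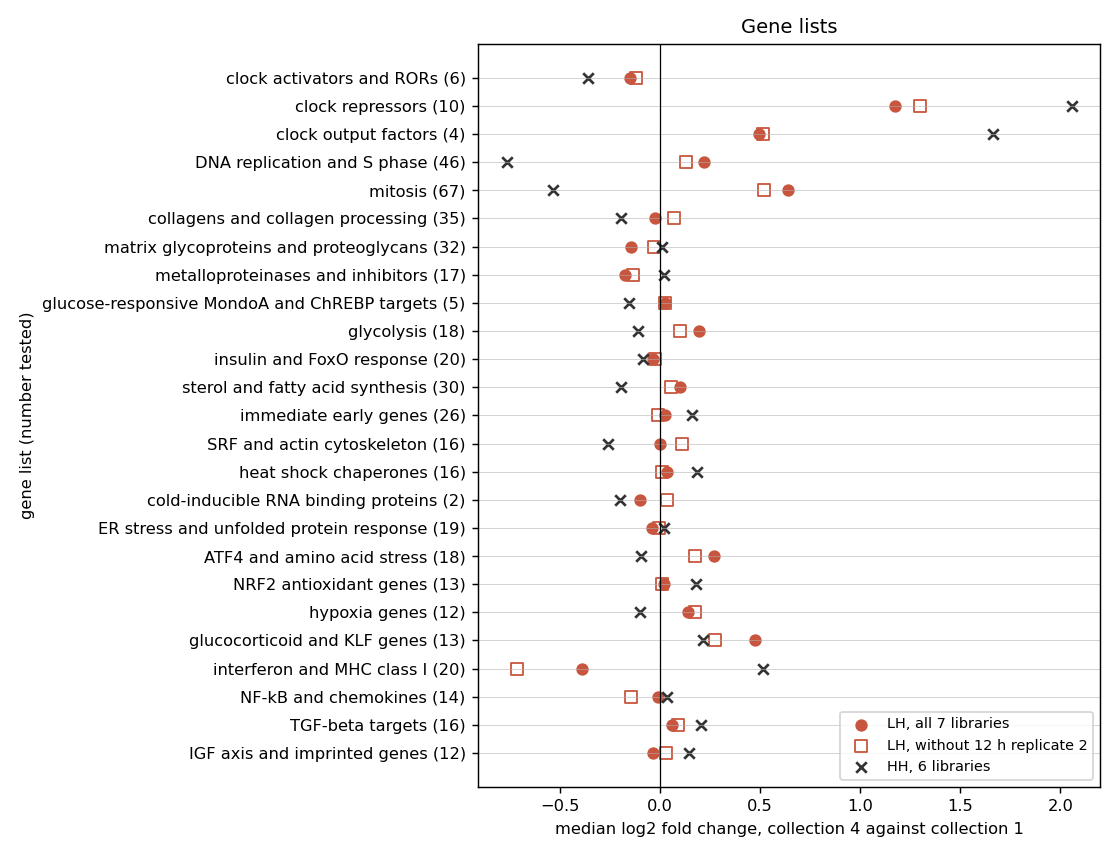
Median log2 fold change of collection 4 against collection 1 in each of 25 gene lists, with the number of genes tested in brackets, for LH with all 7 libraries (filled circles), LH without replicate 2 of 12 h (open squares) and HH with 6 libraries (crosses). The clock repressors lie right of 0 in all 3, while mitosis and S phase lie right of 0 in LH and left of 0 in HH, and the interferon list does the reverse.

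The same interval was measured under HH in 4 libraries of collection 1 and 2 of collection 4, and the change in LH was tested against the change in HH in 1 model. These 6 libraries carry the same names in the titles and in the read summary. The changes differed for 192 genes (1.44%), with LH above HH in 75 and below it in 117. With the libraries that the read summary calls LH, 0 genes differed from HH in edgeR (620 at an unadjusted p under 0.05), so each difference below is a difference by title. Among the clock genes, 2 differed. Nr1d2 rose in LH by less, since its log2 fold change in HH was 2.63 ± 0.17 (SE), a difference of -1.11 ± 0.24 (adjusted p = 0.019 in edgeR). Its HH libraries were at 14.3 to 21.3 CPM in collection 1 and at 109 and 103 CPM in collection 4, that is, below all LH libraries of 0 h and above all LH libraries of 12 h. By the read summary the log2 fold change of Nr1d2 in LH was 2.51.

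Tef had a log2 fold change of 1.91 ± 0.18 in HH, and the difference from LH was -1.15 ± 0.24 (adjusted p = 0.017 in edgeR), while by the read summary Tef had 1.55 in LH. For Nr1d1, Bhlhe41 and Dbp the difference was 0.34 ± 0.37, -0.07 ± 0.38 and -0.73 ± 0.42 (SE), none of which passed. Cry2 came near, with a difference of -1.41 ± 0.37 (adjusted p = 0.056 in edgeR). The difference test depends strongly on single libraries, with 13 genes called without replicate 4 of HH collection 4 and 544 without replicate 2 of LH collection 4.

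The 5 genes with the smallest p in the difference test were Ccar1, Eif2ak2, Timp1, Trim12c and Dkk2. Eif2ak2 had a log2 fold change of 0.82 ± 0.18 (SE) in HH, and LH differed from it by -1.78 ± 0.24 (adjusted p = 0.00067 in edgeR). Its HH libraries were at 37 to 46.6 CPM in collection 1 and at 55.5 and 80.8 CPM in collection 4, opposite in order to the LH libraries. Ccar1, a coactivator gene, was at 222, 186 and 191 CPM at 0 h in LH and at 134, 130, 160 and 132 CPM at 12 h, a log2 fold change of -0.54 ± 0.14 against 0.90 ± 0.14 in HH.

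Dkk2, which encodes a Wnt antagonist, was at 682, 549 and 536 CPM at 0 h in LH and at 317, 190, 426 and 286 CPM at 12 h, with log2 fold changes of -0.96 ± 0.21 in LH and 0.82 ± 0.19 in HH. Trim12c, of a family of antiviral TRIM genes, had -1.10 ± 0.22 in LH and 1.02 ± 0.23 in HH. In LH alone Ccar1, Dkk2 and Trim12c were not called with all libraries and were called lower without 12 h replicate 2. Timp1, a metalloproteinase inhibitor gene, differed the other way, at 111 to 131 CPM and 122 to 174 CPM in LH (0.25 ± 0.15) and at 321 to 370 CPM and 85.8 to 139 CPM in HH (-1.56 ± 0.19). By the read summary the LH log2 fold changes of these 5 genes had the sign of those in HH, at 0.34 for Ccar1, 0.45 for Eif2ak2, -1.51 for Timp1, 0.16 for Trim12c and 0.67 for Dkk2. For 115 of the 192 genes the fitted fold change was negative in LH and positive in HH, and for 73 it was positive in LH and negative in HH.

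**Figure D5:**
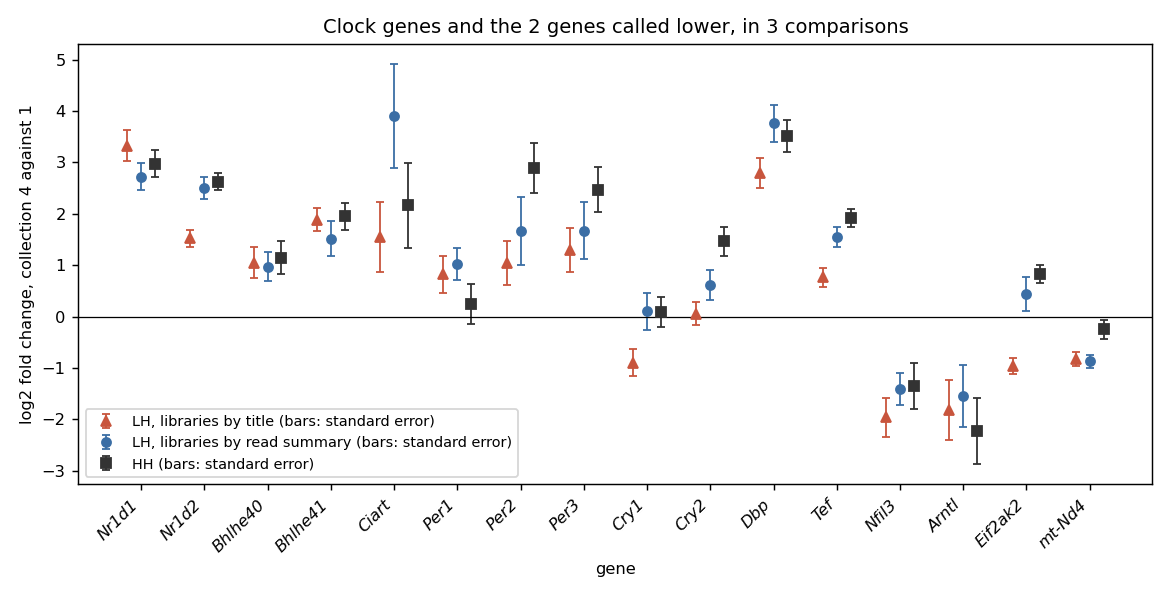
Log2 fold change of collection 4 against collection 1, with its standard error, for 14 clock genes and the 2 genes called lower, in LH by title (red triangles), in the libraries that the read summary calls LH (blue circles) and in HH (black squares). Nr1d1, Nr1d2, Bhlhe41 and Dbp lie above 0 in all 3, Nfil3 and Arntl below, and Eif2ak2 is below 0 by title only.

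The libraries that the read summary places in LH collections 1 and 4 are different libraries, and they gave 14 called genes (0.105%), 4 of which were also called by title. These were Nr1d1, Dbp, Nr1d2 and mt-Nd4, with log2 fold changes by the read summary of 2.73, 3.76, 2.51 and -0.87. The 10 genes called by the read summary and not by title were Tef, Egr1 and Egr3, which were higher, and Mgp, Mcm5, Timp1, Tagln, Ccne2, Peg10 and Spon2, which were lower. Bhlhe41 had 1.52 ± 0.34 (SE, adjusted p = 0.23 in edgeR). Eif2ak2 had 0.45 ± 0.33, the opposite sign to that by title. The median of the interferon list was 0.49 in those libraries and those of the mitosis and S phase lists -0.42 and -0.52, again opposite in sign to the values by title. The lists of clock repressors and output factors kept their sign, with medians of 1.59 and 1.28. Which naming is right was not tested here.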

How the data were processed

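Total RNA of 62 libraries was sequenced by 3′DGE, in which reads come from the 3′ end of transcripts. The sequencing service aligned and counted the reads, and the authors deposited these counts per gene without normalization, 1 set for each sequencing run. The submitters' processing notes list bcl2fastq, STAR 2.6.0a, HTSeq 0.9.1 and mm10. The strand setting and the annotation used for counting are not given in these sources. Reads without a gene were not used. In the runs of the 7 libraries compared, 20.1% to 29.1% had no feature and 0.333% to 0.39% were ambiguous. These are shares of the reads counted on a gene, on no feature or as ambiguous.

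Both runs of a library were summed (5124931 to 8101013 counts in the 7 libraries), and 30934 of 31053 identifiers matched GENCODE M21 (GRCm38). Genes with 1 CPM in 3 of 62 libraries were tested with edgeR 4.0.16 (R 4.3.3) by quasi-likelihood with TMM scaling and Benjamini-Hochberg adjustment at 0.05, and DESeq2 1.42.0 was an alternative. The difference between LH and HH was an interaction term. CPM are by library totals. On simulated data without a library made to stand apart, 145 of 200 2-fold changes in genes of at least 5 CPM were found. There 18 of 13092 unchanged genes were called.

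The members, gene lists and tests were chosen with earlier results of these data known, so no list here is independent evidence. Named genes are all clock genes tested, the called genes with a mean of at least 5 CPM (up to 12 in each direction, filled up to 6 with uncalled genes of the smallest p), the 4 members of each list with the smallest p, and the 5 with the smallest p in the difference test. For lists outside the clock, values are printed where at least 4 members had an unadjusted p under 0.05, so not every gene of this rule is printed (1 clock gene is not reported here), and other genes named were chosen after their values were seen. Genes under 3 counts per library on average in a group get no fold change. Same-numbered replicates did not deviate together (correlations of -0.21, -0.11 and -0.17 over 7766 genes). Promoter windows run from 250 bases before to 50 after each RefSeq start. Alternatives covered naming, runs, scaling, filters, test, replicate block and single libraries, and 2 were added after the data were seen.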

Additional observations from a re-analysis of the deposited data

Results flagged for a closer look

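Chance marks about 1 in 20 groups of this size as holding a value far from the others, and 7 of the 81 genes printed with values did so in the 4 libraries of LH collection 4. Replicate 2 was the one apart for 2900060B14Rik (442 CPM), Dync2h1 (21.3 CPM), Thbs2 (41.8 CPM), Calr (867 CPM) and Irf9 (305 CPM). Replicate 3 was apart for Ccar1 (160 CPM) and replicate 4 for Fdps (285 CPM). Irf9 was named after its values were seen, and most of these genes share replicate 2. The count therefore cannot be weighed against the rate of chance.

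The LH change differed from the HH change by the interaction test in edgeR (adjusted p under 0.05) for 1.44% of all genes. Many of the printed genes were chosen for a small p in that test or in LH alone, so their share is no measure of all genes. Of the printed genes 27 differed, given here as LH minus HH on the log2 scale. Among clock genes these were Nr1d2 (-1.11) and Tef (-1.15). Genes with a smaller or more negative change in LH also included Eif2ak2 (-1.78), Ifit1 (-3.05), Bst2 (-1.66), Trim12c (-2.12), Lgals3bp (-1.52), Angptl4 (-1.75), Dync2h1 (-1.38), Ccar1 (-1.44), Dkk2 (-1.79), Col12a1 (-1.15), Thbs2 (-1.10), Igf1 (-1.12) and Stc2 (-0.98). The genes with a larger or less negative change in LH were those of replication and mitosis, Mcm7 (1.25), Mcm5 (2.19), Cdc20 (1.92), Cdca3 (2.31), Plk1 (2.81) and Spc24 (3.20), as well as Acta2 (1.85), Timp1 (1.81), Mgp (0.95), Insig1 (1.12), Sdf2l1 (1.17) and Lsm12 (0.83). Of the whole lists, 7 of 67 mitosis genes and 5 of 46 S phase genes differed, all with LH higher, and 4 of 20 interferon genes, all with LH lower, against 1.44% of all genes. HH collection 4 had 2 libraries, and none of the differences was called with the libraries that the read summary names LH.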

How the results depend on the processing

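The 6 genes called were 14 with the libraries that the read summary calls LH, 109 with 12 h replicates 3 and 4 only, 2 with the spread estimated over all 62 libraries, 12 in the first sequencing run, 75 without a filter on low counts, 41 in DESeq2 (2858 adjusted p-values empty) and 4 to 219 without 1 library. The high end is without 12 h replicate 2, where DESeq2 called 221 and the fit over all 62 libraries called 0 (edgeR, 551 genes at an unadjusted p under 0.05), 2 settings added after the data were seen. Members of the gene lists called, 4 in the report, were 12, 23, 2, 4, 17 and 10 under the first 6 of these settings, 4 to 36 without 1 library (36 without 12 h replicate 2), and 32 and 0 in the 2 added settings. The cause of these moves was not tested. All other settings kept both counts within 1.5 times. The replicate block gave 5 called genes and lost Eif2ak2 (adjusted p = 0.15) and mt-Nd4 (adjusted p = 0.42 in edgeR), with 5 list members called, but the numbers do not pair the libraries.

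The 192 differences between LH and HH were 473 in DESeq2, 3 with all 62 libraries and 0 by the read summary (edgeR, 620 genes at an unadjusted p under 0.05). Without 1 library they were 13 to 544. They were 544 without LH 12 h replicate 2, 49 and 86 without LH 0 h replicates 2 and 3, 94, 101, 82 and 73 without HH collection 1 replicates 1 to 4, and 319 and 13 without HH collection 4 replicates 1 and 4.

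Of 1815 gene values under alternatives, 1595 kept direction and side of the threshold, 128 passed it only there, 31 failed it only there and 61 reversed sign. By the read summary the log2 fold changes that reversed were Arntl2 1.06, Rora 0.60, Cry1 0.10, 2900060B14Rik -0.27, Lsm12 -0.01, Eif2ak2 0.45, Angptl4 0.89, Lgals3bp 0.69, Dync2h1 0.25, Ccar1 0.34, Timp1 -1.51, Dkk2 0.67, Trim12c 0.16, Mcm7 -0.38, Mcm5 -1.52, Slbp -0.16, Cdc20 -0.31, Cdca3 -0.37, Plk1 -0.61, Spc24 -1.29, Col12a1 0.31, Serpinh1 -0.19, Thbs1 0.30, Thbs2 0.44, Insig1 -0.27, Fdps -0.08, Msmo1 -0.09, Sdf2l1 -0.22, Dnajc3 0.08, Sesn2 -0.10, Ifit1 1.56, Bst2 0.48, H2-K1 0.28, Irf7 0.65, Irf9 0.49, Isg15 1.56, Acta2 -0.85, Actb -0.01, Igf1 0.69, Grb10 -0.35, Igfbp6 -0.07 and Stc2 0.61. Near 0, Clock became 0.02 with the replicate block and ranged from -0.10 to 0.03 without 1 library (positive without 0 h replicates 2 and 3 and 12 h replicate 1), and Cry2 became -0.02 with the block and ranged from -0.05 to 0.14 without 1 library (negative without 12 h replicate 4). Irf9 became 0.01 with 12 h replicates 1 and 2 only. Near 0, mt-Nd2 became 0.05 with 12 h replicates 3 and 4 only and, without 12 h replicate 2, 0.05 in DESeq2 and over all 62 libraries, and it ranged from -0.21 to 0.05 without 1 library (positive without 0 h replicates 3 and 4 and 12 h replicate 2). Arntl2, at 0 to 3.51 CPM, became 0.09 with 12 h replicates 3 and 4 only, 0.51 in the first run and -0.47 to 0.34 without 1 library (positive without 0 h replicate 2 and without 12 h replicate 2), and without 12 h replicate 2 it was 0.25 in DESeq2 and 0.24 over all 62 libraries. Genes of a few counts in a library are not resolved at this depth.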
